A study of Mus musculus with 9 samples.

Results

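Insulin-like growth factors act through the receptor tyrosine kinase encoded by Igf1r, and a family of secreted binding proteins carries them, extends their lifetime and sets how much of them reaches the receptor. The binding proteins are made by many stromal, vascular and epithelial cells, and several of them also bind matrix or cell surfaces without a growth factor. The genes described here are the binding proteins Igfbp1 to Igfbp7, the ligand Igf1, its receptor Igf1r and the clearance receptor Igf2r. They were selected by gene symbol from the deposited table, and the family was picked from earlier results of these data in which the irradiated and untreated libraries differed for Igfbp6. The comparison of irradiated with untreated libraries is therefore given for the family as a description. No p-value from it is printed for a member. Where a member is named as called or not called, the label is part of that description and not independent evidence. Of the 10 symbols, 9 were among the 13223 listed genes. Igfbp1 was not listed and is not analysed here.

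The libraries came from tuft cells, rare chemosensory epithelial cells, sorted out of enzymatically dissociated thymi of young female wild-type mice. One group, with 4 libraries, had been given a sublethal dose of 425 rad 3 days before the thymus was taken. The other group, with 5 libraries, came from untreated wild-type females of matched age. RNA was read by bulk MARS-seq, which counts the 3' ends of polyadenylated transcripts. The labels name neither the number of pooled cells nor the sorting gate, and do not say whether each library came from its own mouse. The p-values below therefore cover the spread from library to library, part of which may be technical.

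Totals ran from 509157 to 939948 counts in irradiated libraries and from 686082 to 978442 in untreated libraries. Levels are given as CPM, in which counts are divided by the library total after TMM scaling (a factor per library that aligns most genes), on which 1 count was worth 1.04 to 2.1 CPM. All 16 genes of a list of tuft cell markers were listed, and none was at 0 in any library. Their summed level was 13965 to 18845 CPM in irradiated and 8209 to 17950 CPM in untreated libraries. Irradiated replicate 4, the library with the fewest counts, stood apart on the first principal component, at -75.08 against -6.12 to 31.77 for the other 8 libraries, and values that moved most without it are given both ways. The reads count transcript ends, and levels are not scaled to length. Levels are compared between libraries and not between genes.

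In irradiated libraries 3 binding proteins were higher than in untreated libraries, Igfbp6 by 7.21-fold, Igfbp4 by 2.41-fold and Igfbp5 by 2.31-fold. For each of the 3, all 4 irradiated libraries lay above all 5 untreated libraries. The other 5 members with enough counts for a fit, Igfbp3, Igfbp7, Igf1, Igf1r and Igf2r, were not called, and 0 members were called lower. A call here is an adjusted p under 0.05 in edgeR's quasi-likelihood test, with Benjamini-Hochberg adjustment over all 8934 tested genes. By that rule 1.22% of tested genes were higher and 0.123% lower, and 3.06% had every irradiated library above every untreated one while 2.08% had every irradiated library below. The median log2 fold change was 0.71 over the 8 fitted members and -0.02 over all tested genes. Nothing is read from these counts, since the same contrast brought the family up.

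Igfbp6 encodes a binding protein that prefers insulin-like growth factor 2 over insulin-like growth factor 1. Its level was 1052, 602, 493 and 659 CPM in irradiated replicates 1 to 4, and 96.3, 99.3, 77.7, 138 and 73.9 CPM in untreated replicates 1 to 5. Every irradiated library was more than 3 times as high as the highest untreated library, replicate 4. The means were 701 ± 244 CPM (SD, n = 4) in irradiated and 97.0 ± 25.5 CPM (SD, n = 5) in untreated libraries, and the fitted log2 fold change was 2.85 ± 0.25 (SE). It rested on 2008 counts in the irradiated and 380 in the untreated libraries. Of all tested genes, 99.9% had a smaller log2 fold change. With single libraries left out in turn the log2 fold change ran from 2.60 to 3.01, in the same contrast that brought the gene up.

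Igfbp5 encodes a binding protein that also attaches to extracellular matrix. It was at 1070, 877, 786 and 652 CPM in irradiated replicates 1 to 4, and at 349, 292, 444, 421 and 329 CPM in untreated replicates 1 to 5. The groups were well apart, with the lowest irradiated library, replicate 4, above the highest untreated one, replicate 3. The mean was 846 ± 176 CPM in irradiated (SD, n = 4) and 367 ± 63.7 CPM in untreated libraries (SD, n = 5), with a log2 fold change of 1.21 ± 0.20. Igfbp5 had the smallest relative spread of the 3 higher members in both groups, with a coefficient of variation of 20.7% in irradiated and 17.4% in untreated libraries. With single libraries left out in turn its log2 fold change ran from 1.08 to 1.31.

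Igfbp4 encodes a binding protein that mostly restrains insulin-like growth factors until the protease pappalysin cuts it. Its level was 423, 331, 189 and 467 CPM in irradiated replicates 1 to 4, and 173, 110, 176, 158 and 109 CPM in untreated replicates 1 to 5. Irradiated replicate 3 lay just above untreated replicates 3 and 1, while the other irradiated libraries were far higher. The mean was 352 ± 123 CPM (SD, n = 4) in irradiated and 145 ± 33.5 CPM (SD, n = 5) in untreated libraries, with a log2 fold change of 1.27 ± 0.25. Its call depended on single libraries: it was lost without irradiated replicates 1, 2 or 4 or untreated replicates 4 or 5, where the log2 fold change was between 1.11 and 1.31.

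Ratios of counts between these genes within a library do not depend on how libraries are scaled. Igfbp6 over Igfbp5 was 0.627 to 1.01 in irradiated and 0.175 to 0.34 in untreated libraries, and Igfbp6 over Igfbp4 was 1.41 to 2.60 in irradiated and 0.441 to 0.905 in untreated libraries. Neither ratio overlapped between the groups. Igfbp5 over Igfbp4 was 1.40 to 4.15 in irradiated and 2.02 to 3.03 in untreated libraries, and here the irradiated range contained the untreated one. These ratios reuse the counts through which Igfbp6 was picked and are a description only. In the authors' deposited table, whose log2 fold change runs untreated over irradiated, the values were -2.87 for Igfbp6, -1.30 for Igfbp4 and -1.22 for Igfbp5. The authors' deposited table passes these 3 members and none of the other 6, against 1.83% of all listed genes.

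**Figure D1:**
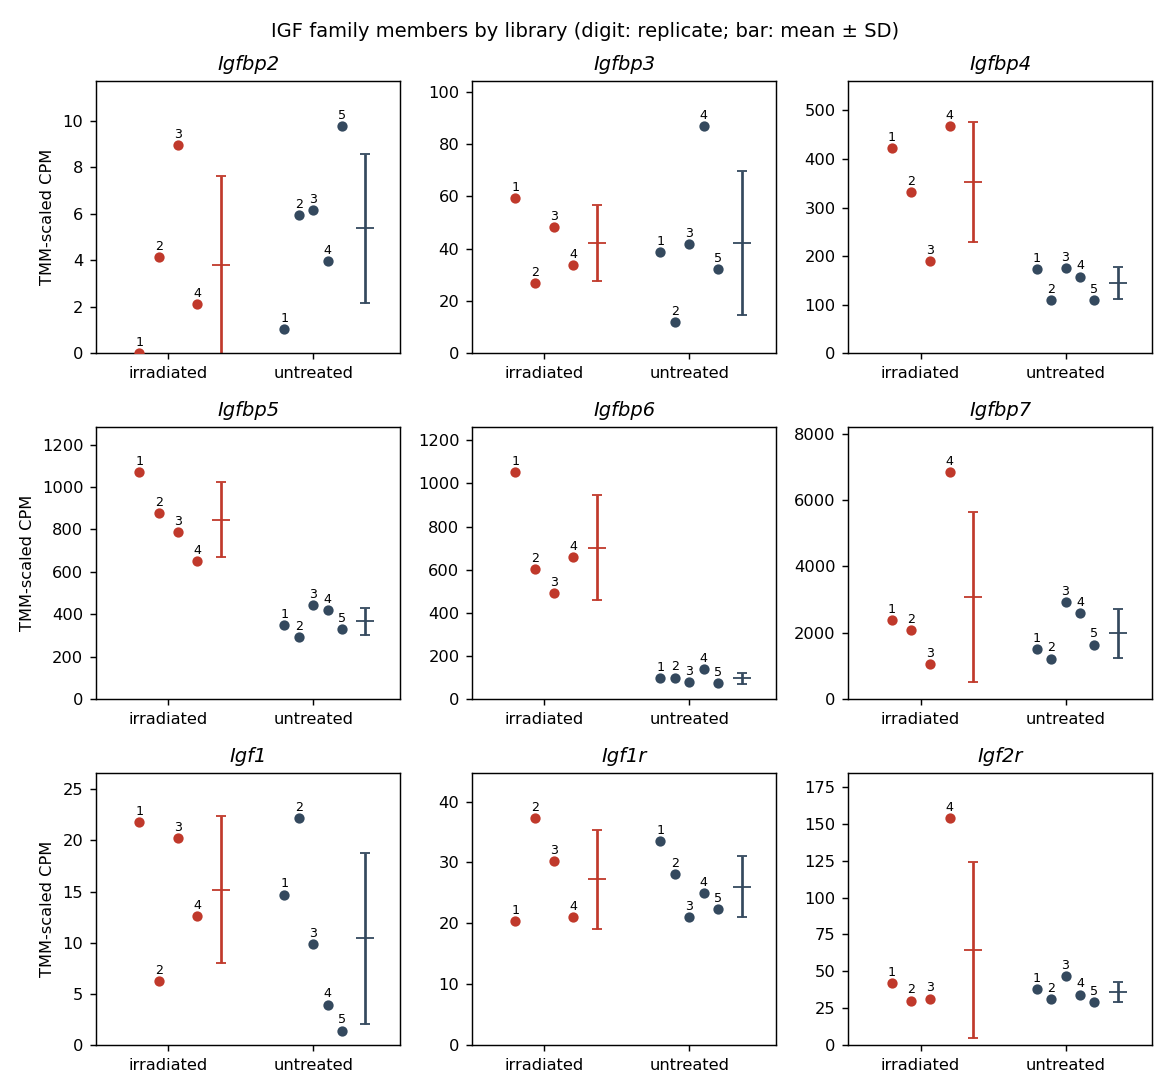
Levels of the 9 listed family members in TMM-scaled CPM (vertical axes, from 0, a scale for each gene), with 1 point per library (the digit is the replicate) and the mean ± SD beside each group, bars clipped at 0. Igfbp4, Igfbp5 and Igfbp6 do not overlap between irradiated and untreated libraries, and irradiated replicate 4 stands above the rest for Igfbp7 (6835 CPM) and Igf2r (154 CPM).

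Igfbp6 lies on the plus strand of chromosome 15 (chr15:102144362-102149511), Igfbp5 on the minus strand of chromosome 1 (chr1:72857932-72874884) and Igfbp4 on the plus strand of chromosome 11 (chr11:99041244-99054392) in the mm10 annotation of GENCODE. The other listed members lie at chr1:72824503-72852474 (Igfbp2, plus strand), chr11:7206086-7213923 (Igfbp3, minus strand), chr5:77349240-77408041 (Igfbp7, minus strand), chr10:87858265-87937042 (Igf1, plus strand), chr7:67952827-68233668 (Igf1r, plus strand) and chr17:12682406-12769664 (Igf2r, minus strand). Igfbp4, Igfbp5 and Igfbp6 are protein-coding and their exons overlap those of no other annotated gene. Igfbp5 has Igfbp2 as its neighbour in the opposite orientation, 5457 bases away with no coding gene between them, and of this pair Igfbp5 had 2544 counts in irradiated and 1446 in untreated libraries, while Igfbp2 had 13 in irradiated and 20 in untreated libraries. The 250 bases before the RefSeq start site of the 3 higher members are shown because these genes moved in the same direction. They are from the GRCm38.p6 build, written 5' to 3' on the strand of the gene, and end at the RefSeq start, which need not be the GENCODE gene end given above, with matches to TATAAA, to the GC box GGGCGG and to the AP-1 motif TGANTCA on either strand in capitals.
Igfbp6, chr15:102143936-102144185, plus strand: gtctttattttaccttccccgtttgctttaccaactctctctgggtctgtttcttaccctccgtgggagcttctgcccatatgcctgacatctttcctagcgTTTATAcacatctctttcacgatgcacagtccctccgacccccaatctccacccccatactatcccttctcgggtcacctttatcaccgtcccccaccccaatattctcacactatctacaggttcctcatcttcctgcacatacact
Igfbp4, chr11:99040994-99041243, plus strand: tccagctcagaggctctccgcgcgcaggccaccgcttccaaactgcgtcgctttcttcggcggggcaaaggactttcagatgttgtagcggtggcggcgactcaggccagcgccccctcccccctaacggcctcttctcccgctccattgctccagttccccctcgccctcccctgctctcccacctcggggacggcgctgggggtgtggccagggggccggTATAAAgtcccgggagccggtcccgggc
Igfbp5, chr1:72874866-72875115, minus strand: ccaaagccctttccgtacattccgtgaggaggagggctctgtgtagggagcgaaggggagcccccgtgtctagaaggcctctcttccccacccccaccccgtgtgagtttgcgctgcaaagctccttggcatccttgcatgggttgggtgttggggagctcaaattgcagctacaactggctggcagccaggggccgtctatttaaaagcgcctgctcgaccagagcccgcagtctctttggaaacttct

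The 3 windows differed in composition. Their GC content was 49.6% for Igfbp6, 69.2% for Igfbp4 and 58.8% for Igfbp5, against a median of 52.4% over 32851 mouse promoter windows of the same length. A TATAAA match began at position -28 in Igfbp4, and a match on the other strand lay at position -148, counted from the start site, in Igfbp6, while Igfbp5 had none of these letters, which 12.4% of all windows hold. None of the 3 windows held TGANTCA, found in 6.7% of all windows, GGGCGG, found in 32.7%, or the p53 half-site, found in 7.1%. Each held 1 match to the E box CANNTG, which overlaps none of the other motifs and occurs in 66.2% of windows. A missing match says only that the letters are not in these 250 bases.

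Igfbp7 encodes a secreted protein with low affinity for insulin-like growth factors that is abundant in blood vessels. It was at 2375, 2073, 1057 and 6835 CPM in irradiated replicates 1 to 4, and at 1500, 1218, 2924, 2599 and 1642 CPM in untreated replicates 1 to 5. Irradiated replicate 4 was more than 2 times as high as any other library, and the other 3 irradiated libraries lay within or below the untreated range. The log2 fold change was 0.64 ± 0.48 with all libraries and -0.10 without irradiated replicate 4, so its direction rested on that library. An exon of Igfbp7 overlaps Polr2b on the opposite strand. The sources do not name the strand setting of the counting, so how reads inside that overlap were assigned is not known.

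Igfbp3 encodes the main carrier of insulin-like growth factors in blood. It was at 59.3, 27.0, 48.2 and 33.7 CPM in irradiated replicates 1 to 4, and at 38.7, 11.9, 41.9, 86.8 and 32.1 CPM in untreated replicates 1 to 5. All irradiated libraries lay inside the untreated range, whose ends were untreated replicates 2 and 4. The log2 fold change was -0.02 ± 0.43, and 0.41 without untreated replicate 4. Igfbp2 was sparse, with 0, 4, 8 and 1 counts in irradiated replicates 1 to 4 and 1, 4, 5, 3 and 7 counts in untreated replicates 1 to 5. It did not pass the filter on low counts, so no fit was made, and the 0 of irradiated replicate 1 allows up to 3 counts.

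The ligand and both receptors were not called. Igf1 was at 21.8, 6.22, 20.2 and 12.6 CPM in irradiated replicates 1 to 4, and at 14.7, 22.2, 9.87, 3.95 and 1.39 CPM in untreated replicates 1 to 5, with a log2 fold change of 0.52 ± 0.58. The groups overlapped, and the whole comparison rested on 44 counts in the irradiated and 41 in the untreated libraries. Igf1r, which signals, was at 20.3, 37.3, 30.2 and 21.0 CPM in irradiated replicates 1 to 4, and at 33.5, 28.1, 21.0, 25.0 and 22.3 CPM in untreated replicates 1 to 5. Its groups overlapped, with a log2 fold change of 0.09 ± 0.28. Igf2r, which takes up and clears insulin-like growth factor 2 and sorts lysosomal enzymes, was at 42.1, 30.1, 31.4 and 154 CPM in irradiated replicates 1 to 4, and at 37.7, 31.1, 46.9, 34.2 and 29.3 CPM in untreated replicates 1 to 5. As for Igfbp7, irradiated replicate 4 alone was high: the log2 fold change was 0.77 ± 0.46 with it and -0.07 without it.

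**Figure D2:**
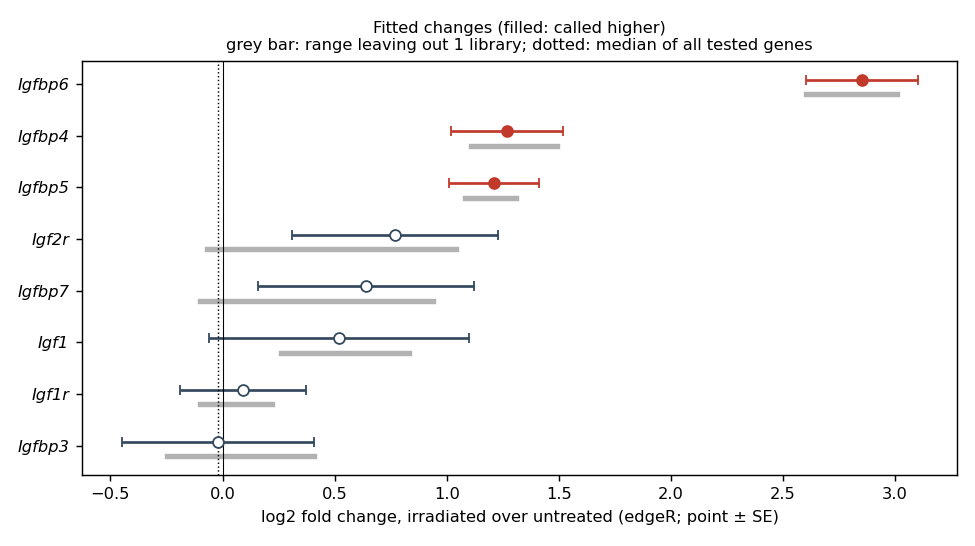
Log2 fold change of irradiated over untreated for the 8 fitted members (horizontal axis; points with SE, filled where called higher), with grey bars for the range when each library was left out and a dotted line at the median of all tested genes, -0.02. The bar of Igfbp6 runs from 2.60 to 3.01, while the bars of Igfbp7, Igf2r, Igf1r and Igfbp3 cross 0.

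None of the tested genes on lists of the insulin-like growth factor pathway beside the family passed the test. Of a list of 71 such genes, 63 were listed in the table and 50 had enough counts for the test. Of the 50, 0 were called higher and 0 lower by edgeR's quasi-likelihood test adjusted over all genes, and DESeq2 and limma-voom also called 0. The shares over all tested genes were 1.22% higher and 0.123% lower, so 0 of 50 is near those shares and does not show that the genes were unchanged. An unadjusted p under 0.05 was found for 8 of the 50. Among all 8934 tested genes, 946 had an unadjusted p under 0.05. The median log2 fold change of the 50 was 0.04, and 27 were above 0. In 3 of the 50 every irradiated library was above every untreated one, and in 1 every irradiated library was below. The shares over all tested genes were 3.06% and 2.08%.

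Among 14 tested proteases and binding partners, the serine protease Htra1, which cuts binding proteins, was at 115 ± 29.1 CPM in irradiated and 62.8 ± 16.9 CPM in untreated libraries (log2 fold change 0.85 ± 0.23, edgeR adjusted p = 0.122). Mmp2, a gelatinase that is also a fibroblast product, was at 141 ± 26.8 CPM in irradiated and 60.1 ± 33.1 CPM in untreated libraries (edgeR adjusted p = 0.200). Every irradiated library was above every untreated one for Mmp2, as in 3.06% of all tested genes. The matrix protease Mmp7 was at 0, 10.4, 10.1 and 0 CPM in irradiated replicates 1 to 4 against 11.5 to 114 CPM in untreated libraries (edgeR adjusted p = 0.214). The endocytic receptor Lrp1 was at 150 ± 34.5 CPM in irradiated and 96.8 ± 36.1 CPM in untreated libraries (edgeR adjusted p = 0.391). None of these 4 passed the test, and Mmp7 shares exon sequence with AV064505 on the opposite strand. The pappalysin inhibitors Stc1 and Stc2 and the protease Pappa2 were too sparse for it.

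Of 34 tested adaptors and signalling genes, the nearest to a call was Grb10, an adaptor that dampens receptor signalling, at 37.2 ± 8.49 CPM in irradiated and 17.0 ± 7.25 CPM in untreated libraries (edgeR adjusted p = 0.159). Its irradiated libraries all lay above its untreated ones, as in 3.06% of all tested genes. The receptor substrate Irs2, whose exons overlap 9530052E02Rik on the opposite strand, was at 82.3 ± 27.5 CPM in irradiated and 52.0 ± 13.9 CPM in untreated libraries (edgeR adjusted p = 0.364), the kinase Map2k1 at 62.9 ± 10.3 CPM in irradiated and 89.8 ± 22.6 CPM in untreated libraries (edgeR adjusted p = 0.422), and the kinase Gsk3b at 22.9 ± 16.3 CPM in irradiated and 10.8 ± 4.75 CPM in untreated libraries (edgeR adjusted p = 0.484). The log2 fold change of Gsk3b was 1.0 ± 0.48 with all libraries and 0.49 without irradiated replicate 4. The insulin receptor Insr was at 2.10 to 18.7 CPM in irradiated and 11.8 to 34.1 CPM in untreated libraries (log2 fold change -0.62 ± 0.45, edgeR adjusted p = 0.705), and the imprinted RNA H19, which overlaps small genes on both strands, at 16.3 ± 12.9 CPM in irradiated and 14.6 ± 12.9 CPM in untreated libraries (edgeR adjusted p = 0.974). Without irradiated replicate 4 the log2 fold change was -0.35 for Insr, and for H19 it was -0.28, against 0.12 with all libraries. The ligand Igf2 did not pass the filter on low counts, at 5.60 to 7.80 CPM in irradiated libraries and 4.18 to 47.4 CPM in untreated libraries.

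**Figure D3:**
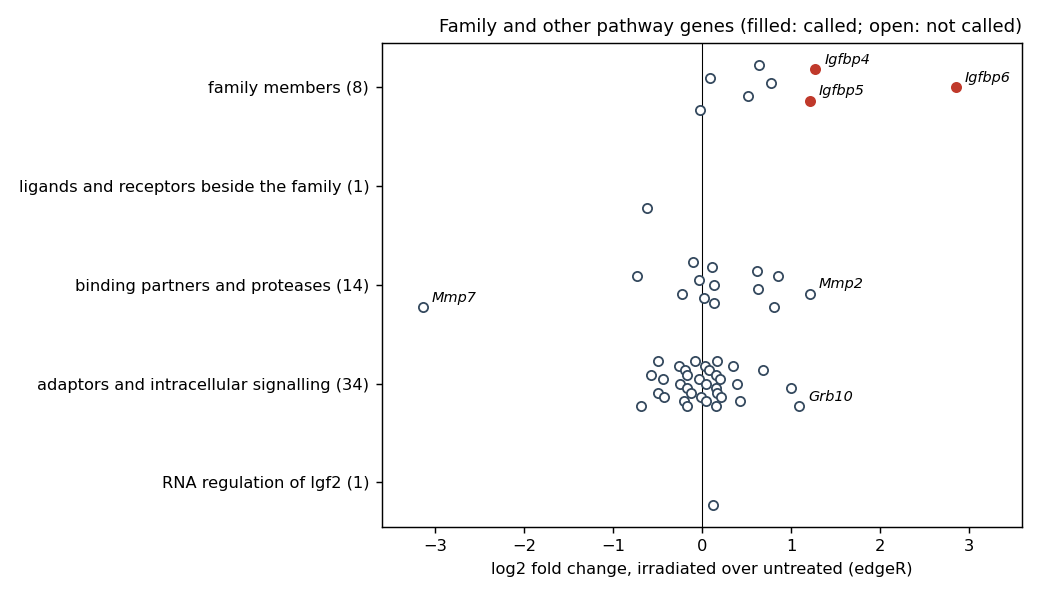
Log2 fold change of irradiated over untreated (horizontal axis) for the 8 fitted family members and the 50 tested genes of the pathway lists, 1 point per gene, filled where called, with vertical spacing within a row only to separate points. The filled points are Igfbp4, Igfbp5 and Igfbp6, and the 50 others run from -3.14 for Mmp7 to 1.21 for Mmp2.

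Binding proteins are made by stromal and vascular cells, so the summed levels of marker genes for other cell types were set beside them. The summed level of 11 of 11 fibroblast markers, none at 0 in any library, was 2992 to 4343 CPM in irradiated and 396 to 2307 CPM in untreated libraries (exact permutation p = 0.0159, 2-sided, and adjusted p = 0.0476 over 9 lists). The mesothelial list, with 8 of 9 markers listed and none at 0, ran from 973 to 1997 CPM in irradiated and from 374 to 861 CPM in untreated libraries (exact permutation p = 0.0159, adjusted p = 0.0476). Neither total overlapped between the groups, and both differed in the same direction as Igfbp4, Igfbp5 and Igfbp6. Of the tested markers 1 of 11 fibroblast and 5 of 6 mesothelial genes were called higher, against 1.22% of all tested genes. With any 1 library left out, the fibroblast, mesothelial and thymocyte totals kept their direction and had adjusted p between 0.0804 and 0.214 by exact permutation. So few arrangements are then left that an adjusted p under 0.05 was hardly within reach. The lack of a pass is therefore not read as a weaker difference. In bulk samples fewer cells of a type and less RNA per cell cannot be told apart. Their part in the higher binding proteins was not tested.

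The fibroblast total was 2.40 times and the mesothelial total 2.79 times as high in irradiated as in untreated libraries by the ratio of means. Set against the fibroblast total of its own library, Igfbp6 was 24.2%, 20.1%, 16.0% and 20.6% of it in irradiated replicates 1 to 4, and 4.17%, 25.1%, 5.80%, 9.21% and 4.76% in untreated replicates 1 to 5. Untreated replicate 2, whose fibroblast total was the lowest of all at 396 CPM, was as high as the irradiated libraries on this scale, and the other 4 untreated libraries were lower. Against the mesothelial total, Igfbp6 was 35.4% to 52.7% in irradiated and 11.5% to 32.2% in untreated libraries, without overlap. Igfbp5 was 20.4% to 29.3% of the fibroblast total in irradiated and 15.1% to 73.8% in untreated libraries, and Igfbp4 was 6.14% to 14.6% in irradiated and 7.0% to 27.7% in untreated libraries. Both overlapped. The mean share of Igfbp6 was 20.2% ± 3.37 (SD, n = 4) in irradiated and 9.81% ± 8.77 (SD, n = 5) in untreated libraries. For Igfbp4 the mean share was 10.4% ± 3.51 in irradiated and 13.2% ± 8.5 in untreated libraries. For Igfbp5 it was 25.0% ± 3.64 in irradiated and 34.3% ± 23.1 in untreated libraries. Untreated replicate 2 raised both untreated means, at 27.7% for Igfbp4 and 73.8% for Igfbp5. The other untreated libraries were at 7.0% to 13.2% for Igfbp4 and 15.1% to 33.1% for Igfbp5, so no direction is read from these means. All of these shares reuse the counts of the contrast through which Igfbp6 was picked and are a description only.

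The endothelial total, with 13 of 13 markers listed and none at 0, was 1393 to 5010 CPM in irradiated and 1473 to 3462 CPM in untreated libraries (exact permutation p = 0.595, adjusted p = 0.595). The pericyte and smooth muscle total, with 9 of 9 markers and none at 0, was 268 to 1016 CPM in irradiated and 403 to 1085 CPM in untreated libraries (exact permutation p = 0.460, adjusted p = 0.518). Irradiated replicate 4 was the highest irradiated library in both, as it was for Igfbp7 and Igf2r. The log2 difference was 0.25 for the endothelial total with all libraries and -0.06 without irradiated replicate 4, and for the pericyte and smooth muscle total it was -0.34 with all and -0.68 without it. The thymocyte total, with 12 of 13 markers listed and 9 of them at 0 in some library, was 25.9 to 52.6 CPM in irradiated and 87.8 to 1019 CPM in untreated libraries (exact permutation p = 0.0159, adjusted p = 0.0476). The macrophage and dendritic total, with 13 of 15 listed and Adgre1, Itgax, Flt3 and Ccr7 at 0 in some library, was 218 to 953 CPM in irradiated and 209 to 2324 CPM in untreated libraries (exact permutation p = 0.214, adjusted p = 0.306). Cortical epithelial markers summed to 130 to 223 CPM in irradiated and 181 to 923 CPM in untreated libraries (7 of 7 listed, Psmb11 at 0 in some library, exact permutation p = 0.159, adjusted p = 0.306), and medullary epithelial markers to 262 to 421 CPM in irradiated and 243 to 1806 CPM in untreated libraries (7 of 8 listed, none at 0, exact permutation p = 0.238, adjusted p = 0.306). The tuft cell total did not pass either (exact permutation p = 0.214, adjusted p = 0.306).

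**Figure D4:**
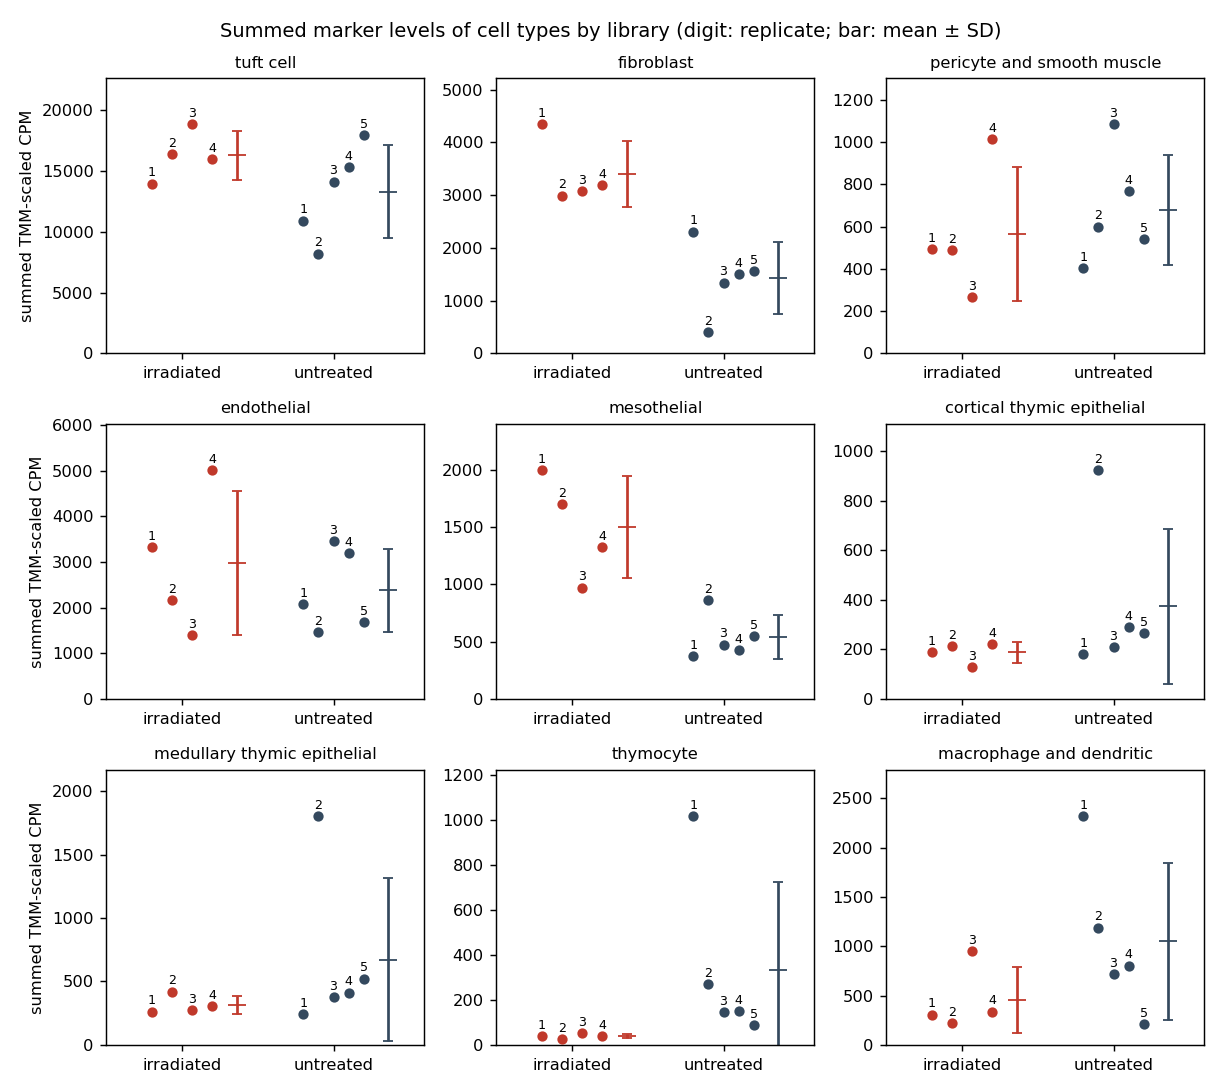
Summed TMM-scaled CPM of the markers of each cell type (vertical axes, from 0, a scale for each list), with 1 point per library (the digit is the replicate) and the mean ± SD beside each group, bars clipped at 0. Fibroblast and mesothelial totals are higher in all irradiated libraries and thymocyte totals lower, and irradiated replicate 4 is the highest irradiated library for endothelial markers at 5010 CPM.

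How members varied from library to library within a group does not use the difference between groups. Deviations from the group mean of log2 CPM were correlated over the 9 libraries, with exact permutation of libraries within groups and adjustment over 72 relations between a member and a marker total. The 2 libraries named as farthest out are the farthest by the marker total alone, and need not be so for the member. The smallest p was that of Igfbp7 with the endothelial total (Pearson r = 0.94, exact permutation p = 0.00104, adjusted p = 0.0749, Spearman rho = 0.93, p = 0.00486, adjusted p = 0.175), and r was 0.93 without the 2 libraries farthest out. Igfbp7 with the pericyte and smooth muscle total came next (r = 0.92, exact permutation p = 0.0066, adjusted p = 0.183, rho = 0.92, p = 0.00833, adjusted p = 0.200), with r = 0.80 without the 2 farthest libraries. For Igfbp4 with the endothelial total the values were similar (r = 0.90, exact permutation p = 0.00764, adjusted p = 0.183, rho = 0.90, p = 0.00486, adjusted p = 0.175), with r = 0.84 without those 2 libraries. Igf2r with the endothelial total had r = 0.76 (exact permutation p = 0.0174, adjusted p = 0.313, rho = 0.77, p = 0.0229, adjusted p = 0.325), and r = 0.79 without the 2 farthest libraries. Igf2r with the pericyte and smooth muscle total had r = 0.75 (exact permutation p = 0.0392, adjusted p = 0.403, rho = 0.60, p = 0.123, adjusted p = 0.626), and r = 0.47 without the 2 farthest.

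For Igfbp5 the relation with the endothelial total turned on irradiated replicate 4. With all libraries r was 0.31 (exact permutation p = 0.464, adjusted p = 0.967, rho = 0.28, p = 0.519, adjusted p = 0.905), against 0.98 without that library and 0.99 without irradiated replicates 3 and 4. With the pericyte and smooth muscle total r of Igfbp5 was 0.07 (exact permutation p = 0.875, adjusted p = 0.967, rho = 0.20, p = 0.666, adjusted p = 0.905), and 0.72 without irradiated replicate 4.

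Igf1 had r = 0.78 with the macrophage and dendritic total (exact permutation p = 0.0295, adjusted p = 0.371, rho = 0.72, p = 0.0385, adjusted p = 0.325) and r = -0.80 with the tuft cell total (exact permutation p = 0.0309, adjusted p = 0.371, rho = -0.80, p = 0.0406, adjusted p = 0.325). Without the 2 farthest libraries these were 0.58 and -0.49. None of the 72 relations passed the adjustment. Igfbp6 deviated with neither the fibroblast total (r = 0.11, exact permutation p = 0.784, adjusted p = 0.967, rho = 0.27, p = 0.502, adjusted p = 0.905) nor the mesothelial total (r = 0.33, exact permutation p = 0.411, adjusted p = 0.967, rho = 0.37, p = 0.387, adjusted p = 0.882) to an extent that passed. Without the 2 libraries farthest out, untreated replicates 1 and 2, r with the fibroblast total was 0.71, so that value rested on them. In the mesothelial comparison r was -0.08 without irradiated replicate 1 and untreated replicate 2. With the fibroblast total r was 0.42 for Igfbp4 (exact permutation p = 0.17, adjusted p = 0.72) and 0.47 for Igfbp5 (exact permutation p = 0.191, adjusted p = 0.724). With the mesothelial total r was 0.03 for Igfbp4 (exact permutation p = 0.931, adjusted p = 0.967) and -0.03 for Igfbp5 (exact permutation p = 0.935, adjusted p = 0.967).

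**Figure D5:**
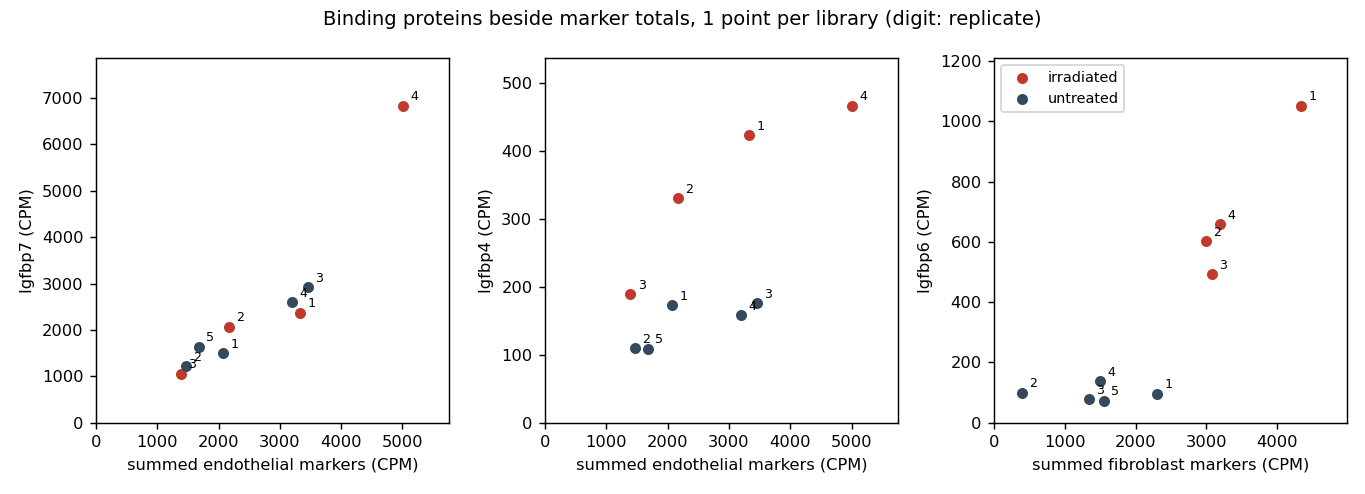
Igfbp7 and Igfbp4 against the summed endothelial markers and Igfbp6 against the summed fibroblast markers, all in TMM-scaled CPM on linear axes from 0, with 1 point per library. The Igfbp7 points rise with the endothelial total in both groups, up to 6835 CPM in irradiated replicate 4, the irradiated Igfbp4 points lie above untreated points of like endothelial total, and the Igfbp6 points of the irradiated libraries, from 493 to 1052 CPM, lie above all untreated points.

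Per unit of the endothelial total, Igfbp7 was 94.8% ± 29.7 (SD, n = 4) in irradiated and 83.7% ± 9.12 (SD, n = 5) in untreated libraries, and the ranges of 71.4% to 136% and 72.4% to 97.8% overlapped. Igfbp4 was 9.32% to 15.2% of the endothelial total in irradiated and 4.93% to 8.34% in untreated libraries, without overlap. Igfbp6 was 13.1% to 35.4% of it in irradiated and 2.24% to 6.74% in untreated libraries, again without overlap. Igfbp5 was 13.0% to 56.4% of it in irradiated and 12.8% to 19.8% in untreated libraries, which overlapped through irradiated replicate 4. These shares reuse the counts of the contrast that brought the family up. The levels of Igfbp4 and Igfbp6 did not overlap between the groups before the division either, so the lack of overlap is a description only.

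Between members, the strongest relations of deviations were those of Igfbp7 with Igf2r (r = 0.86, exact permutation p = 0.0194, adjusted p = 0.396, rho = 0.63, p = 0.0944, adjusted p = 0.529), Igfbp4 with Igfbp7 (r = 0.81, exact permutation p = 0.0292, adjusted p = 0.396, rho = 0.77, p = 0.0375, adjusted p = 0.529) and Igfbp3 with Igfbp5 (r = 0.67, exact permutation p = 0.0424, adjusted p = 0.396, rho = 0.67, p = 0.0854, adjusted p = 0.529). For pairs of members, the 2 libraries farthest out are chosen by the member named first alone. Without them r was 0.61 for Igfbp7 with Igf2r, 0.70 for Igfbp4 with Igfbp7 and 0.54 for Igfbp3 with Igfbp5. None of the 28 pairs passed the adjustment. Among the 3 higher members r was 0.52 for Igfbp4 with Igfbp6, 0.43 for Igfbp5 with Igfbp6 and 0.33 for Igfbp4 with Igfbp5, with an adjusted p of 0.884 for each by exact permutation. Without the 2 libraries farthest out r was 0.05 for Igfbp4 with Igfbp6, 0.36 for Igfbp5 with Igfbp6 and 0.30 for Igfbp4 with Igfbp5. Without irradiated replicate 4 it was 0.61 for Igfbp4 with Igfbp6, 0.50 for Igfbp5 with Igfbp6 and 0.81 for Igfbp4 with Igfbp5. Igfbp5 also had r = 0.04 with Igfbp7 over all libraries and 0.93 without that library, and r = -0.33 with Igf2r over all and 0.79 without it, with adjusted p of 0.986 and 0.884 by exact permutation over all libraries.

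The genes whose deviations were most like those of a member were taken, as a description, from 7461 tested genes that averaged 20 CPM or more over the 9 libraries. For Igfbp6 they were Anapc7 (r = 0.90), Slc31a2 (0.87) and Pitpnm2 (0.86), and for Igfbp5 Trim37 (0.98), Amotl2 (0.96) and Ncbp2 (0.95). For Igfbp4 they were S1pr1 (0.99), Ets2 (0.97) and Aqp1 (0.97), for Igfbp7 Grrp1 (0.98), Vim (0.98) and Depp1 (0.97), and for Igfbp3 Ephb4 (0.98), Midn (0.95) and Loxl1 (0.94). Igf1r was nearest to Nol7 (0.99), Rnf114 (0.95) and Eed (0.93). Igf2r was nearest to Sgf29 (0.98), Snrpb (0.97) and Fbrsl1 (0.97), of which Snrpb was at 0.70 without irradiated replicate 4. Over so few libraries the highest of so many values is large by selection, so these names are a description with no test.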

How the data were processed

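Sorted thymic tuft cells of 4 irradiated and 5 untreated libraries were profiled by MARS-seq. Per the file headers, the single table deposited by the authors holds raw counts per gene symbol, normalized signal (counts divided by a size factor per library), regularized log2 values, and the authors' log2 fold change with p-value columns. Tools named in the submitters' processing notes, with no roles, are DESeq2, HTSeq, STAR 2.5.2b, cutadapt and bcl2fastq, and the build is mm10. Collapsing of molecular identifiers is not given in the sources used here. A count may thus be a read or a molecule. The smallest maximum over libraries of any listed gene was 6 counts. Other deposited flags were used only for passing genes, and the regularized values were not used.

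Counts were tested in R 4.3.3 with edgeR 4.0.16 (filterByExpr with a minimum count of 10, TMM, robust quasi-likelihood test), with a median log2 fold change of -0.02 over tested genes. Standard errors are the absolute log2 fold change over the root of the F statistic. The code was checked on simulated counts. Alternatives were DESeq2 1.42.0, limma-voom (limma 3.58.1), other scalings and filters, a replicate block and leaving out each library. Marker totals were compared as log2 of summed CPM plus 1 by exact permutation, whose smallest p was 0.00794. Correlation p-values came from 2880 permutations within groups and were added, like the shares of marker totals, after the data were seen. Members, lists and tests were chosen with earlier results of these data known. Named were all members, any called pathway gene and up to 4 further genes per list with the smallest p, and the 3 genes most like each member with a mean of at least 20 CPM. Genes named only for being sparse were singled out after their values were seen. The labels name no pairing by replicate number. Deviations from the group means of same-numbered libraries had correlations of 0.067, -0.01, -0.123 and 0.141. Over all pairs of an irradiated and an untreated library they ran from -0.178 to 0.141. A batch shared by same-numbered libraries was not tested. Library pairs within a group differed by more than sampling noise, with chi-square per degree of freedom from 2.397 to 10.761.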

Additional observations from a re-analysis of the deposited data

Results flagged for a closer look

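In 28 genes and marker totals, each group of 4 or 5 libraries was searched for a library far from the rest of its group by Dixon's criterion, which chance alone meets in about 1 of 20 groups. Of 56 groups, 7 had such a library. Among the members it was Igf2r, at 154 CPM in irradiated replicate 4 against 30.1 to 42.1 CPM in the rest of its group. Insr was at 34.1 CPM in untreated replicate 2 against 11.8 to 18.1 CPM in the rest.

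The other cases were marker totals. Fibroblast markers summed to 4343 CPM in irradiated replicate 1 against 2992 to 3190 CPM in the rest of its group, and macrophage and dendritic markers to 953 CPM in irradiated replicate 3 against 218 to 337 CPM. Untreated replicate 2 had 923 CPM of cortical epithelial markers against 181 to 289 CPM in the rest, and 1806 CPM of medullary epithelial markers against 243 to 523 CPM. Untreated replicate 1 had 1019 CPM of thymocyte markers against 87.8 to 271 CPM in the rest of its group.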

How the results depend on the processing

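Genes called higher numbered 109 and genes called lower 11 over all tested genes, and 180 and 66 by the Wald test of DESeq2. limma-voom called 24 genes lower, and the fit with a replicate block, on replicates 1 to 4, called 22. Over the fits that left out 1 library, genes called higher ran from 50 to 114 (50 without irradiated replicate 1, 62 without untreated replicate 3 and 64 without irradiated replicate 2), and genes called lower from 2 to 12 (2 without irradiated replicates 1 or 2, and 6 without irradiated replicate 3 or untreated replicates 3 or 4). No gene of the pathway lists was called in any alternative. With the replicate block the calls of Igfbp5 (log2 fold change 1.16) and Igfbp4 (1.14) were lost. The same libraries without a block, added after the data were seen, are those of the fit without untreated replicate 5, where Igfbp4 was at 1.18 and not called. The labels name no pairing, and whether same-numbered libraries share a batch was not tested. A call lost under the block is therefore not read as a weaker effect.

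Members and genes that were not called changed sign as follows, within leave-one-out ranges of -0.25 to 0.41 for Igfbp3, -0.10 to 0.94 for Igfbp7, -0.10 to 0.22 for Igf1r, -0.07 to 1.04 for Igf2r, -0.28 to 0.64 for H19 and -0.06 to 0.56 for the endothelial total. Igfbp7 was at -0.10 without irradiated replicate 4 and -0.05 by limma-voom, Igf2r at -0.07 without that library and -0.04 by limma-voom, and Igf1r at -0.10 without irradiated replicate 2. Igfbp3 was at 0.11 with the replicate block, 0.17 without irradiated replicate 2, 0.06 without irradiated replicate 4 and 0.41 without untreated replicate 4. H19 was at -0.06 and -0.28 without irradiated replicates 2 and 4, and -0.21 and -0.04 without untreated replicates 3 and 5, the second being the fit of replicates 1 to 4 with no block. The endothelial total was at a log2 difference of -0.06 without irradiated replicate 4. With any 1 library left out, the fibroblast, mesothelial and thymocyte totals did not pass and kept their direction. With the few arrangements then left a pass was hardly within reach, so its lack is not read as a weaker difference. The cause of the other changes was not tested. Igfbp2 and Igf1 rested on few counts, and the SE of Igf2r was 0.46 with all libraries and 0.25 without irradiated replicate 4.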
